A study of Mus musculus with 12 samples.

Results

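The genes described here encode the corepressor partners through which TET1 is known to act without oxidizing DNA. They are the scaffold genes Sin3a and Sin3b, the deacetylase genes Hdac1 and Hdac2, the SIN3 complex subunit genes Sap30 and Sap130, and the genes Ogt and Hcfc1 of the O-GlcNAc arm. They were chosen by name, and all 8 were found among the 35976 genes of the deposited count table and passed the filter on low counts. RNA was sequenced from primordial germ cells (the cells that give rise to the gametes) of female mouse embryos at E14.5, sorted by an Oct4-GFP reporter that all groups carry, with 5000 cells per extraction. There were 4 groups of 3 libraries. HxD was Tet1HxD/HxD, which is homozygous for a catalytically dead Tet1. KO was Tet1-/-. V was Tet1V/V, homozygous for a Tet1 that stalls at 5-hydroxymethylcytosine (5hmC). WT was wild type. Whether the 3 libraries of a group stem from different embryos is not stated in the labels; the p-values therefore reflect variation among libraries, part of which may be technical.

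TET1 oxidizes 5-methylcytosine in DNA, and it also sits at CpG-rich promoters in complexes that need none of this activity. SIN3A and SIN3B are scaffolds that hold the deacetylases HDAC1 and HDAC2, which remove acetyl groups from histone tails, while SAP30 and SAP130 are further subunits of the same complex. OGT adds the sugar N-acetylglucosamine to nuclear and cytoplasmic proteins, binds TET proteins, and modifies and cleaves HCF1, the product of Hcfc1, an adaptor that joins histone-modifying complexes to transcription factors. A catalytically dead allele is made to remove the activity and keep the protein, and a knockout to remove both, so a comparison of HxD with KO addresses the non-catalytic functions.

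Total counts ran from 18471158 to 29495313 per library. Libraries differed in gene capture: of 2936 genes averaging 1 to 5 CPM (counts scaled to the library's total), the share without a count ran from 1.77% in HxD3 to 45.7% in KO3, and was 43.7% in HxD1 and 27.2% in KO1. Germ cell markers were abundant, with a summed level of 2931 to 3539 CPM over 9 genes in the mutant libraries and 3559 to 4066 CPM in WT. Of the markers of other cell types, Pecam1, which germ cells also express, was at 106 to 252 CPM, and the other endothelial and blood markers were each at 7.45 CPM or less. The summed markers of supporting cells reached at most 49.3 CPM (V) and those of stromal and steroidogenic cells at most 21.8 CPM (HxD), with Cyp17a1 at 0 in all 12. Tet1 itself was at 80.8 to 158.3 CPM in KO and at 91.4 to 215.1 CPM in WT, and its difference was not called (edgeR, adjusted p = 0.484). All KO libraries were below those of HxD (221.7 to 285.8 CPM) and V (192.0 to 225.7 CPM). How many of all genes separate in this way is not given here. The Tet1 log2 fold changes over KO were 0.99 in HxD and 0.73 in V, both uncalled in the main fit. Without the filter on low counts, HxD against KO was called (edgeR, adjusted p = 0.000845) and V against KO was not (0.164). The sources used here do not give the deleted exons, so these levels do not check the KO label.

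TET proteins act on methylated CpG, so the CpG content of the start windows of these genes is shown here as context, although no methylation was measured. RefSeq start windows (GRCm38.p6, 250 bases before to 50 after a start) matched 6 of the 8 genes, Hdac1 and Sap130 being the others. The windows of the 6 held 14 to 36 CpG (the letters CG, which read the same on both strands), against a median of 7 over 32851 windows of the same length. The Hdac2 window held the most of these 6 genes, 36, a count that 6.23% of all windows reach, and that of Sin3b held 14, a count that 36.3% reach and the fewest among the 6 genes, shared by 1 of the windows of Sin3a and 1 of Ogt. Both are printed 5′ to 3′ on the plus strand, with each CpG in capitals, to show how far the CpG density of the genes differs.
Hdac2, chr10:36974294-36974593: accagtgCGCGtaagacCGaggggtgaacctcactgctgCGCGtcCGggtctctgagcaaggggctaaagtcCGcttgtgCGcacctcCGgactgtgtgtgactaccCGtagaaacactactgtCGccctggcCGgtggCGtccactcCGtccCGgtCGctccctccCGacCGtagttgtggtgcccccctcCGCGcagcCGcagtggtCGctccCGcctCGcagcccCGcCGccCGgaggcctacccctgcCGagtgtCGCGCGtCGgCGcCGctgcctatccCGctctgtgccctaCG
Sin3b, chr8:72723020-72723319: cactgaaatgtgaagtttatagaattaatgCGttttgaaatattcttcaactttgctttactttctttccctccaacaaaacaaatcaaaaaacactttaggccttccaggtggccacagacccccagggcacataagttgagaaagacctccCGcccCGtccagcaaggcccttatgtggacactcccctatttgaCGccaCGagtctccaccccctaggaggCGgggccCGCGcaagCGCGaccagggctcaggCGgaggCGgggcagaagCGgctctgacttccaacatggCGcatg
The Hdac2 sequence carries CpG along its whole length, while in the Sin3b sequence they gather toward the start site.

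The partner genes were well expressed in WT germ cells. Per kilobase of exon (GENCODE M21 exon lengths, the level unit being CPM per kb), Hdac2 was highest at 115.3 ± 19.4 in WT (SD, n = 3), above 97.9% of the 15398 genes with a WT count and a length. Hcfc1 followed at 73.5 ± 21.2 and Sin3a at 64.3 ± 9.45 CPM per kb, and these neighbours did not differ beyond their spread. Hdac1 was at 40.8 ± 3.94 and Sin3b at 40.8 ± 6.91 CPM per kb in WT. Ogt at 24.6 ± 5.61 and Sap30 at 21.1 ± 13.0 CPM per kb also overlapped, and Sap130 was lowest of the 8 at 9.88 ± 3.82 CPM per kb, above 67.2% of genes. The exon lengths come from an annotation that may not be the one used for counting.

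None of the 8 partner genes was called in any comparison of a mutant with WT by edgeR (quasi-likelihood test, Benjamini-Hochberg adjustment over 16166 genes, called at an adjusted p under 0.05). The share of all genes called was 0.0309% in HxD, 1.22% in KO and 0.155% in V. At an unadjusted p under 0.05 the 8 genes gave 0 in HxD, 2 in KO (Hdac1 and Ogt) and 1 in V (Hdac1), where the shares over all genes were 7.25%, 13.2% and 9.69%. DESeq2 called 1 of them, Hdac1 in KO, where it called 487 of the 16166 genes against 197 by edgeR. Limma-voom called 0 of the 8. The 8 genes had a median log2 fold change of 0.02 in HxD, 0.07 in KO and 0.08 in V, against -0.01, -0.02 and 0 over all genes tested. The 3 comparisons share the WT libraries, so they are not independent of one another. In a test of any difference among the 4 groups, none of the 8 was called either and Hdac1 had the lowest p (edgeR, adjusted p = 0.5), where 0.241% of genes were called.

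**Figure D1:**
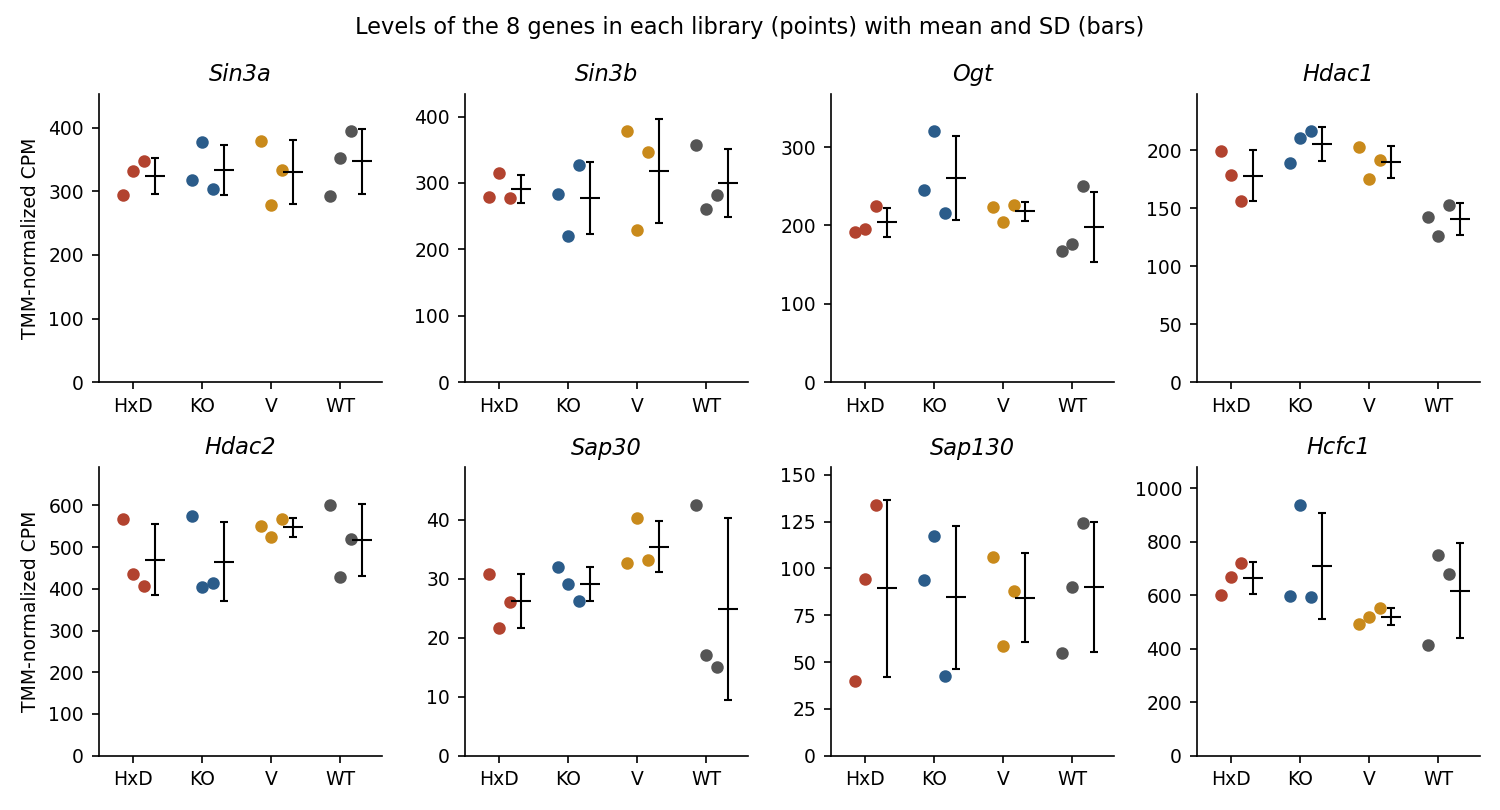
Level of each partner gene in TMM-normalized CPM (y axis, from 0) in the 3 libraries of HxD, KO, V and WT (points), with the group mean and SD (bars). The Hdac1 panel is the one in which the mutant libraries (156.3 to 216.3 CPM) lie above the WT libraries (126.1 to 153.1 CPM), while in the other panels the mutant groups overlap WT.

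**Figure D2:**
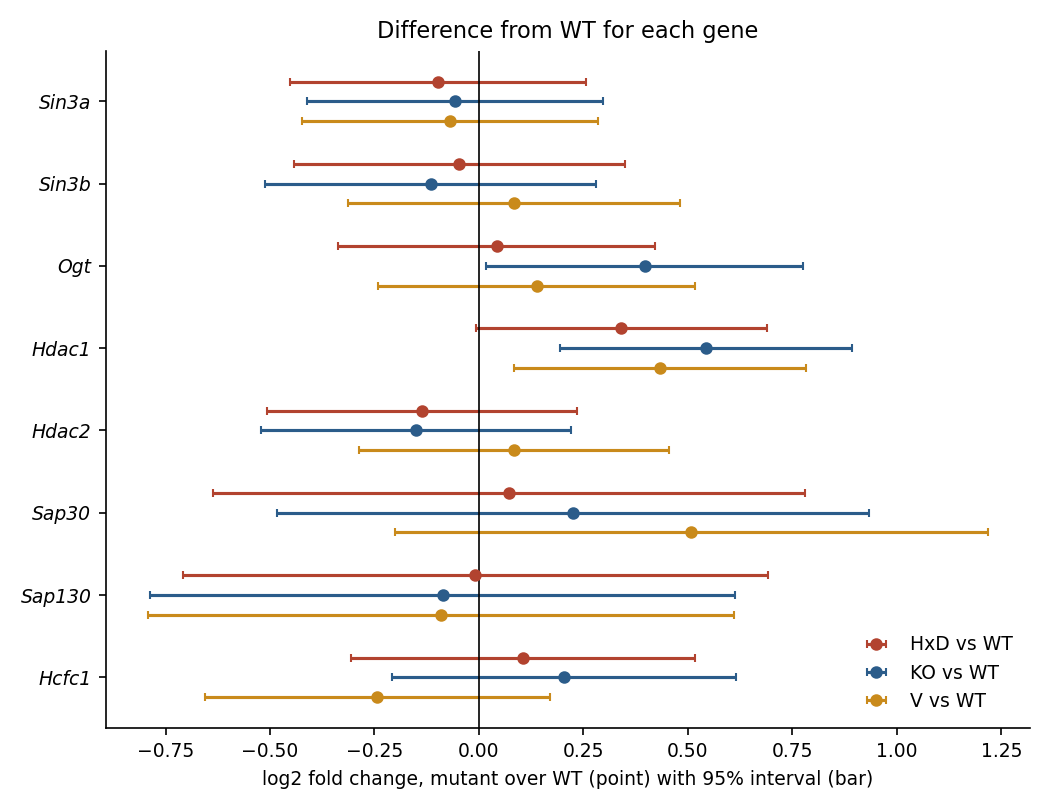
Log2 fold change of each mutant over WT (points) with its 95% interval (bars) for the 8 genes. The Hdac1 estimates are 0.34, 0.54 and 0.43 in HxD, KO and V, and the widest intervals are those of Sap30 and Sap130.

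Hdac1 was the partner gene with the largest difference relative to its spread. The Hdac1 level was 199.6, 178.2 and 156.3 CPM in the HxD libraries, 188.4, 210.4 and 216.3 CPM in KO, 203.0, 175.2 and 191.3 CPM in V, and 142.6, 126.1 and 153.1 CPM in WT. Every one of the 9 mutant libraries was thus above the 3 WT libraries, with HxD3 the closest to WT. The means from high to low were 205.0 ± 14.7 CPM in KO, 189.9 ± 13.98 in V, 178.1 ± 21.6 in HxD and 140.6 ± 13.6 in WT. The 3 mutant means did not differ from one another beyond the spread. Over WT, the log2 fold change was 0.34 in HxD (95% interval -0.01 to 0.69), 0.54 in KO (0.19 to 0.89) and 0.43 in V (0.08 to 0.78), with adjusted p values of 0.702, 0.123 and 0.386 (edgeR). The intervals of KO and V exclude 0 only before adjustment for the number of genes. With the mean of the 3 mutants set against WT, a comparison added after these values were seen, the log2 fold change was 0.44 ± 0.14 (SE) and the adjusted p was 0.136 (edgeR), while 1.22% of genes were called.

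A separation of all 9 mutant libraries above all 3 WT libraries, as for Hdac1, was seen for 1.79% of the genes tested. With the size factors of DESeq2 in place of TMM, Hdac1 no longer separated, since the lowest mutant library was at 154.9 CPM and the highest WT library at 155.8 CPM. By DESeq2 the KO difference passed the threshold (log2 fold change 0.50, adjusted p = 0.0452), as for 487 of the 16166 genes. Its sign was unchanged in the 20 alternatives. Their adjusted p ran from 0.0452 (DESeq2) to 0.345, the highest being that of the fit with KO2 as the only KO library. The summed germ cell markers were also lower in each of the 9 mutant libraries than in each WT library, as given above. The sum leans on single genes, as Dazl alone ran from 553 to 1920 CPM over the 12 libraries. In bulk RNA, fewer cells of a type, less RNA per cell and a change in the marker genes themselves cannot be told apart. The part of this in the Hdac1 level was not tested. The Hdac1 transcript has near-identical copies in GENCODE M21, among them the processed pseudogene Gm10093 with 99.4% identity over 1444 bases. The sources used here do not say how reads shared by such copies were counted, so the Hdac1 level is uncertain to that extent; no copy with at least 90% identity over 200 bases was found for the other 7 genes.

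Hdac2, the paralog that shares the SIN3 complex with Hdac1 and lies on chromosome 10 with Tet1, was at 568.0, 435.3 and 407.2 CPM in HxD, 575.3, 405.5 and 415.2 CPM in KO, 551.6, 523.2 and 567.4 CPM in V, and 601.9, 428.3 and 519.5 CPM in WT. The 4 groups overlapped, and the highest library was WT1. The log2 fold changes were -0.14 ± 0.18 in HxD, -0.15 ± 0.18 in KO and 0.08 ± 0.18 in V (SE; edgeR, adjusted p = 0.999, 0.787 and 0.970). The 95% intervals of the fold change together ran from 0.696 to 1.37, so larger changes than these lie outside them.

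The ratio of Hdac1 to Hdac2 within a library does not depend on how libraries are scaled. This linear ratio of counts was 0.351, 0.409 and 0.384 in HxD, 0.328, 0.519 and 0.521 in KO, 0.368, 0.335 and 0.337 in V, against 0.237, 0.294 and 0.295 in WT. All 9 mutant libraries were above the WT libraries, with KO2 and KO3 highest and WT1 lowest. The ratio uses the same Hdac1 counts as above, so this separation is not independent of that of the Hdac1 level. The share of gene pairs with such a separation is not given here. The mean log2 ratio was -1.36 ± 0.26 over the 9 mutant libraries and -1.87 ± 0.18 over the 3 WT libraries, a difference of 0.51 (exact permutation test, two-sided, p = 0.0182; adjusted p = 0.218 over 12 comparisons of ratios). Each mutant alone differed from WT by 0.48 (HxD), 0.70 (KO) and 0.34 (V), each at an exact p of 0.1, the smallest that 3 libraries against 3 allow, with an adjusted p of 0.3. The ratio compares counts, not numbers of transcripts, as the transcripts differ in length.

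**Figure D3:**
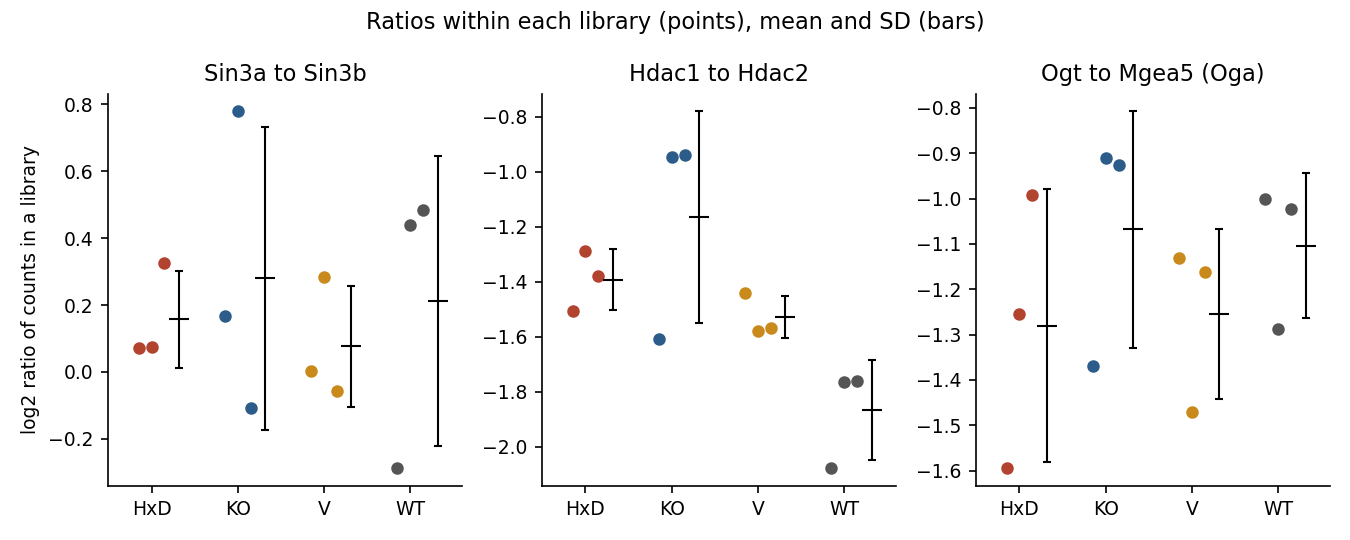
Log2 ratio of counts within each library (y axis) for Sin3a to Sin3b, Hdac1 to Hdac2 and Ogt to Mgea5 (Oga), in HxD, KO, V and WT (points), with mean and SD (bars). For Hdac1 to Hdac2 the mutant libraries lie above WT, with group means of -1.39, -1.17 and -1.53 in HxD, KO and V and -1.87 in WT, while the other ratios overlap.

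The scaffold gene Sin3a was the steadiest of the 8, with a coefficient of variation of 11.3% over the 12 libraries. Libraries gave Sin3a levels of 293.5, 331.4 and 347.6 CPM in HxD, 317.7, 377.5 and 304.3 CPM in KO, 378.9, 278.8 and 333.8 CPM in V, and 293.1, 352.9 and 394.4 CPM in WT. The groups overlapped throughout, the lowest library being V2 and the highest WT3. Log2 fold changes were -0.10 ± 0.17 in HxD, -0.06 ± 0.17 in KO and -0.07 ± 0.17 in V (SE; edgeR, adjusted p = 0.999, 0.930 and 0.974). The 95% intervals of the fold change ran from 0.731 to 1.19 in HxD, 0.752 to 1.23 in KO and 0.745 to 1.22 in V.

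Sin3b, the other scaffold gene, was at 279.1, 314.7 and 277.5 CPM in HxD, 283.1, 220.0 and 327.7 CPM in KO, 378.0, 229.1 and 347.0 CPM in V, and 357.5, 260.6 and 282.0 CPM in WT. V held both a high and a low library, and no group stood apart. Its log2 fold changes were -0.05, -0.12 and 0.08 in HxD, KO and V (SE 0.19 each; edgeR, adjusted p = 0.999, 0.862 and 0.973). The log2 ratio of Sin3a to Sin3b averaged 0.17 ± 0.27 over the mutants and 0.21 ± 0.43 in WT (exact permutation test, two-sided, p = 0.850), and it was below 0 in KO3, V3 and WT1.

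The subunit gene Sap30, whose product bridges SIN3 to other repressors, had the lowest CPM of the 8. Sap30 levels were 30.9, 21.7 and 26.0 CPM in HxD, 31.97, 29.2 and 26.3 CPM in KO, 32.7, 40.4 and 33.2 CPM in V, and 42.6, 17.1 and 14.98 CPM in WT. WT1 was the highest of the 12 libraries and WT2 and WT3 were the lowest, so the WT spread covered every mutant library. The log2 fold change in V, the largest for this gene, was 0.51 ± 0.35 (SE; edgeR, adjusted p = 0.681). In HxD and KO the log2 fold changes were 0.07 and 0.23 (SE 0.35 each). WT1 decided the size of these values, since without it the log2 fold changes were 0.71 in HxD, 0.86 in KO and 1.14 in V, all uncalled (edgeR, adjusted p = 1, 0.418 and 0.302). Without WT3 those of HxD and KO turned to -0.19 and -0.04.

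Sap130, a further SIN3 complex subunit gene, varied most of the 8, with a coefficient of variation of 36.4%. Its level came to 39.7, 94.2 and 134.1 CPM in HxD, 93.7, 117.6 and 42.5 CPM in KO, 106.2, 58.8 and 88.1 CPM in V, and 55.0, 90.2 and 124.4 CPM in WT. Each group held a low and a high library, and the group means were 89.3, 84.6, 84.4 and 89.9 CPM in HxD, KO, V and WT. Log2 fold changes over WT were -0.01, -0.09 and -0.09 in HxD, KO and V (SE 0.34 each; edgeR, adjusted p = 1, 0.951 and 0.985).

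Gene capture moved with the Sap130 level. HxD1 and KO3, in which the most genes of few counts had no count, had the lowest Sap130 levels. Over the 12 libraries Pearson's r between the log2 level and that share was -0.79 (permutation test, p = 0.00272, adjusted p = 0.0218 over the 8 genes) and Spearman's rho was -0.64 (permutation test, p = 0.0282, adjusted p = 0.226). Without HxD1 and KO3 r was -0.44, so the relation rests largely on those libraries. The sign of the Sap130 differences from WT changed with single libraries. On the log2 scale the HxD difference was 0.35 without HxD1, the KO difference 0.23 without KO3 and the V difference 0.11 without V2. Without WT3 the differences were 0.30 in HxD, 0.22 in KO and 0.22 in V, and none of these was called. For the other 7 genes r ran from -0.56 (Sin3a) to 0.27 (Hdac1), with adjusted p of at least 0.236 (permutation test). Without HxD1 and KO3 their r ran from -0.40 (Sin3a) to 0.55 (Hdac2), and that of Hdac1 was -0.22. For Hdac2 r had been 0.22 over the 12 libraries.

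**Figure D4:**
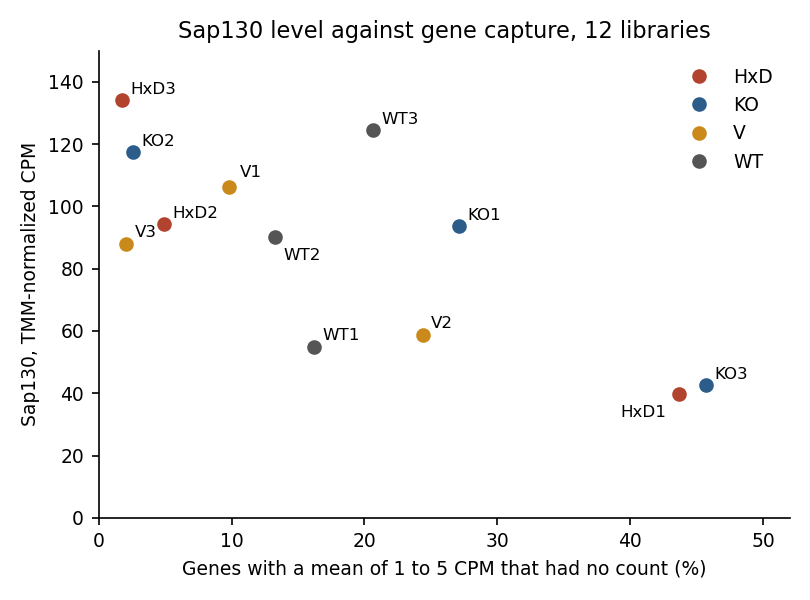
Sap130 level in TMM-normalized CPM (y axis, from 0) against the percentage of genes with a mean of 1 to 5 CPM that had no count (x axis), for the 12 libraries coloured by group. HxD1 and KO3 lie at the lower right, at 39.7 and 42.5 CPM, and the remaining libraries spread over 55.0 to 134.1 CPM.

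Ogt, the only gene for the nuclear and cytoplasmic O-GlcNAc transferase, lies on the X chromosome. Ogt levels came to 191.2, 194.9 and 225.2 CPM in HxD, 245.6, 320.3 and 215.8 CPM in KO, 223.4, 203.7 and 226.4 CPM in V, and 167.1, 176.9 and 249.7 CPM in WT. KO2 stood above every other library, while WT3 exceeded the remaining 10, so each mutant group overlapped WT. The means were 260.6 ± 53.8 CPM in KO, 217.8 ± 12.3 in V, 203.8 ± 18.6 in HxD and 197.9 ± 45.2 in WT, with no pair of neighbours apart beyond the spread. The KO difference was 0.40 ± 0.19 on the log2 scale (SE; 95% interval 0.02 to 0.78; edgeR, adjusted p = 0.354). It was 0.22 without KO2 and 0.60 without WT3, uncalled in both. Without the low-capture libraries HxD1, KO1 and KO3, KO was left with KO2 alone, its highest library, and the value was 0.69. In HxD and V the log2 fold changes were 0.04 ± 0.18 and 0.14 ± 0.18 (edgeR, adjusted p = 0.999 and 0.933). Over 363 X-linked genes that averaged 5 CPM or more, the median log2 fold change was -0.06 in HxD, -0.01 in KO and -0.01 in V.

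Mgea5 (Oga), the gene for the hydrolase that removes the same sugar, was at 577.3, 465.2 and 448.1 CPM in HxD, 634.2, 601.7 and 410.0 CPM in KO, 489.6, 564.4 and 506.3 CPM in V, and 334.5, 432.1 and 507.4 CPM in WT. Its log2 fold changes were 0.23, 0.37 and 0.29 in HxD, KO and V (SE 0.19 each; edgeR, adjusted p = 0.913, 0.394 and 0.652). The log2 ratio of Ogt to Mgea5 was -1.20 ± 0.24 over the mutants and -1.10 ± 0.16 in WT (exact permutation test, two-sided, p = 0.559), a difference within the spread between libraries.

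Hcfc1, also X-linked, was at 599.2, 669.2 and 718.4 CPM in HxD, 596.7, 937.8 and 591.5 CPM in KO, 490.3, 518.2 and 551.1 CPM in V, and 414.5, 751.3 and 680.0 CPM in WT. KO2 was highest and WT1 lowest, and V was the tightest group. The means were 662.3 ± 59.9 CPM in HxD, 708.7 ± 198.5 in KO, 519.9 ± 30.5 in V and 615.3 ± 177.5 in WT, so that KO was highest and V lowest, and WT did not differ from its neighbours beyond the spread. Over WT the log2 fold changes were 0.11 ± 0.20 in HxD, 0.20 ± 0.20 in KO and -0.24 ± 0.20 in V (SE; edgeR, adjusted p = 0.999, 0.719 and 0.791). The sign of the HxD and KO differences rested on single libraries: without WT1 they were -0.11 and -0.01, and without KO2 that of KO was -0.05. All 3 V libraries were below every HxD and KO library, a separation seen for 1.08% of the 16166 genes.

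Between the mutants, none of the 8 genes was called in HxD against KO, V against KO or V against HxD, and neither was any other gene (edgeR, 0% of 16166 genes in each). At an unadjusted p under 0.05, 0, 1 and 0 of the 8 and 514, 747 and 326 of all genes passed, and DESeq2 called 27, 19 and 16 genes with none of the 8 among them. Hcfc1 had the lowest p of the 8, with a log2 fold change of -0.45 in V against KO (95% interval -0.86 to -0.03; edgeR, adjusted p = 0.945) and -0.35 in V against HxD (-0.76 to 0.06; adjusted p = 1). Without KO2, the V against KO difference of Hcfc1 was -0.19. For Ogt, HxD against KO gave -0.35 (95% interval -0.73 to 0.02; edgeR, adjusted p = 1), and for Hdac1 it gave -0.20 (-0.55 to 0.14; adjusted p = 1). Sap30 had all 3 V libraries above every HxD and KO library, as did 1.46% of genes, though not when libraries were scaled by their totals alone. Its log2 fold changes in V were 0.28 over KO and 0.44 over HxD (SE 0.35 each; edgeR, adjusted p = 1 for both). Hdac2 and Sin3a differed least in HxD against KO, by 0.015 and -0.04, with fold change intervals of 0.781 to 1.31 and 0.761 to 1.24. For Sap30 and Sap130 in HxD against KO, these intervals ran from 0.550 to 1.47 and from 0.650 to 1.72. HxD and KO were thus not told apart by the level of any of these transcripts at this number of libraries.

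The partner genes did not vary as a block over the 12 libraries. Among the 28 pairs, described by Pearson's r of log2 CPM over libraries that share depth and capture differences, Sin3a and Sap130 were most alike (0.834) and Hdac2 and Hcfc1 most opposed (-0.757). Ogt and Hcfc1 had an r of 0.575, Hdac1 and Hdac2 one of 0.0151, and Sin3a and Sin3b one of -0.0128. Among 9991 other genes that averaged 5 CPM or more, those with patterns most like Sin3a were Ddx19a and Tfap4, those most like Hdac1 were Egln3 and Fbxo15, and those most like Ogt were Dlg1 and Ttyh1. Phpt1 and Rps28 were nearest to Sin3b, Rbm8a and Mphosph6 to Hdac2, Abcd3 and Ilf2 to Sap30, Tgfbrap1 and Recql4 to Sap130, and Bcr and Prrc2c to Hcfc1. These r values lay between 0.869 and 0.935 over 12 libraries and are the highest of many, so they carry no test.

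The wider complexes were examined through lists of their other genes. None of the 16 tested other SIN3 complex genes was called in HxD, KO or V against WT. The same held for 13 genes of O-GlcNAc cycling and its sugar donor and for 25 genes of the HCF1 complexes. The shares of all genes called were 0.0309%, 1.22% and 0.155% in HxD, KO and V. The SIN3 list had median log2 fold changes of -0.02, -0.07 and -0.02 in HxD, KO and V, and the HCF1 list had 0.10, 0.10 and -0.02, against -0.01, -0.02 and 0 over all genes. The O-GlcNAc list had medians of 0.04, -0.03 and 0.19. In the SIN3 list Kdm5a, a histone H3K4 demethylase gene, had log2 fold changes of -0.51, -0.49 and -0.56 in HxD, KO and V (edgeR, adjusted p = 0.592, 0.276 and 0.318). In the O-GlcNAc list Gnpnat1, an enzyme gene of sugar donor synthesis, had 0.65, 0.76 and 0.61 (edgeR, adjusted p = 0.611, 0.185 and 0.461). Both were named after their values were seen, and other uncalled genes of these lists had lower p. Arid4a of the SIN3 list had -0.69 in V (edgeR, adjusted p = 0.273). Wdr82 of the HCF1 list had 0.57 in KO (edgeR, adjusted p = 0.0828).

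Mta2, a subunit gene of the NuRD complex, the other major HDAC1 and HDAC2 complex, rose in KO and was the 1 called gene of 11 in that list. It was at 182.5, 189.1 and 182.1 CPM in KO and at 85.5, 94.2 and 127.7 CPM in WT, a log2 fold change of 0.85 ± 0.18 (SE; edgeR, adjusted p = 0.0168). The groups did not overlap, and HxD (150.4 to 166.3 CPM) and V (139.3 to 169.8 CPM) were above WT as well. All 9 mutant libraries were thus above WT, as for 1.79% of the genes tested. Neither HxD nor V was called (log2 0.61 and 0.62, edgeR, adjusted p = 0.358 and 0.167). V was called without WT3 (log2 0.81; edgeR, adjusted p = 0.0434). The KO call was lost without KO2, WT1 or WT2, with log2 fold changes of 0.83, 0.73 and 0.79 (edgeR, adjusted p = 0.0565, 0.116 and 0.0821). With KO2 as the only KO library, HxD1 also left out, the KO value was 0.88. In the added comparison of the mean of the 3 mutants with WT, Mta2 was called (log2 0.69; edgeR, adjusted p = 0.0183), as were 1.22% of genes. That call was not kept in every alternative.

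Hdac6, a mainly cytoplasmic deacetylase that acts on tubulin, fell in KO and was the 1 called gene of the 9 other histone deacetylases. It was at 27.5, 34.0 and 45.8 CPM in KO and at 84.2, 85.4 and 85.0 CPM in WT, a log2 fold change of -1.25 ± 0.26 (SE; edgeR, adjusted p = 0.0147). HxD (38.3 to 51.1 CPM) and V (31.7 to 55.9 CPM) were below WT without a call (log2 -0.90 and -1.08; edgeR, adjusted p = 0.325 and 0.0780), although V was called by DESeq2 (adjusted p = 0.0282) and by edgeR without V2 (adjusted p = 0.0372), without the filter (0.00988) or with a replicate block (0.0445). The KO call was lost without KO1, KO2, WT1 or WT2, with log2 fold changes of -1.09, -1.21, -1.25 and -1.24 (edgeR, adjusted p = 0.0512 to 0.0665). With KO2 as the only KO library, HxD1 also left out, the KO value was -1.32. All mutant libraries were below WT for Hdac6, and the share of genes with such a separation is not given here. The 9 genes had median log2 fold changes of -0.37, -0.63 and -0.51 in HxD, KO and V. Of them 8, 9 and 7 were below WT in HxD, KO and V (8, 9 and 8 with DESeq2 size factors), most without a call. None of the 17 CoREST, NCoR and MiDAC genes and none of the 5 TET and CXXC genes was called in HxD, KO or V against WT. The shares over all genes were 0.0309%, 1.22% and 0.155%. Median log2 fold changes in HxD, KO and V were -0.04, 0.15 and -0.04 in the CoREST, NCoR and MiDAC list, 0.05, 0.10 and 0.04 in the NuRD list, and -0.21, -0.40 and -0.13 in the TET and CXXC list.

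**Figure D5:**
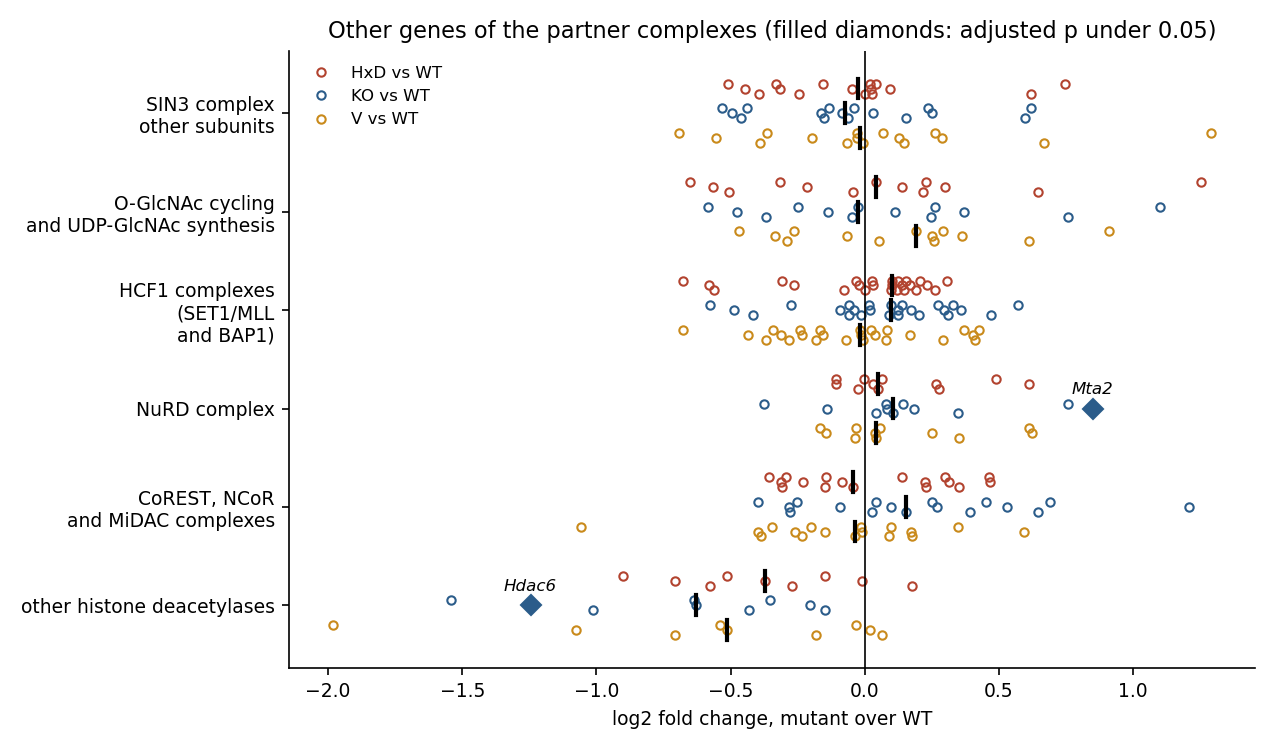
Log2 fold change over WT (x axis) of each tested gene in 6 lists of related complexes, for HxD, KO and V (open circles), with the list median (black bars) and called genes as filled diamonds. Mta2 at 0.85 and Hdac6 at -1.25, both in KO, are the called genes.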

How the data were processed

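Poly(A)-selected RNA of sorted germ cells was sequenced in 12 libraries. The deposited table holds raw counts of reads per gene, not normalized; the submitters' processing notes name featureCounts 2.0.3, STAR 2.7.10b, Trim Galore 0.6.7, FastQC and SAMtools 1.9, and, without a role, the builds mm10 and GRCm39. The sources used here do not give the annotation, the strand option or how reads with several matches were handled.

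Counts were scaled by TMM, filtered with filterByExpr (16166 genes kept) and fitted with the edgeR 4.0.16 quasi-likelihood test in 1 fit of the 4 groups, without a replicate block, in R 4.3.3. P-values were adjusted by Benjamini-Hochberg over all genes kept and called under 0.05. The scripts were tested on simulated data. Levels are TMM-scaled CPM. Ratios were compared with two-sided exact permutation tests and correlations with 100000 permutations (scipy 1.17.1). Alternatives were DESeq2 1.42.0, limma-voom (limma 3.58.1), other scalings and filters, a replicate block, left-out libraries and 2-group fits. The mean of the 3 mutants against WT, and the shares and scalings for separated libraries, were added after values were seen.

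The genes and the lists of related genes were chosen with earlier results of these data known. In each list every gene called against WT was named; for each partner gene the 2 genes of most similar pattern were named, by Pearson's r of log2 CPM, predicted genes left out. Mgea5, Fam60a and Elmsan1 are the table's symbols for Oga, Sinhcaf and Mideas. Near copies were sought with BLAST+ 2.17.0 in GENCODE M21 transcripts at 90% identity over 200 bases. The exons of Sin3a overlap those of the antisense genes 2700012I20Rik and Man2c1os, both at 4.53 CPM or less. No pair of replicates agreed within counting noise, the lowest chi-square per degree of freedom being 29.9 (V1 and V3).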

Additional observations from a re-analysis of the deposited data

How the results depend on the processing

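Of 960 fold changes of the 8 genes recomputed under alternatives, 63 changed sign, none of them called, and 1 was called, Hdac1 in KO by DESeq2, so DESeq2 gave 1 called partner gene there; left-out libraries gave 0 in every comparison. With DESeq2 size factors, 0 of the 8 had all mutant libraries above WT. The number of all genes called moved more. DESeq2 called 63 (HxD), 487 (KO) and 149 (V) against WT, 27 (HxD against KO), 19 (V against KO), 16 (V against HxD), 454 for all mutants and 179 for any difference. Without the filter the counts were 71, 464, 176, 10, 5, 1, 429 and 293 in the same order. Limma-voom called 15 in HxD and 346 for all mutants. With a mean of at least 5 CPM, 1 was called in HxD, 5 in V and 16 for any difference. DESeq2 size factors in edgeR gave 1 in HxD against KO. Fits of the 2 groups compared gave 20 in HxD against WT and 1 each in HxD against KO and V against KO. Without HxD1, KO1 and KO3, 30 were called in KO and 16 in V; KO then held 1 library, KO2, assumed to vary like the other groups, so its count does not bear on stability. For the other settings the cause was not tested.

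Left-out single libraries gave 1 to 35 calls in HxD, 31 (without WT1) to 357 (without WT3) in KO, 2 to 110 in V, 0 to 3 in HxD against KO, 0 to 3 in V against KO, 0 to 1 in V against HxD, 29 to 313 for all mutants and 18 to 77 for any difference. With a replicate block the counts were 22 in HxD, 285 in KO, 73 in V, 2 in HxD against KO, 1 in V against KO and 93 for any difference. None of the 8 genes was called with it. Libraries with the same number did not deviate together more than others. Over 18 such pairs r ran from -0.150 to 0.109, and over 36 pairs of unlike number from -0.137 to 0.155. Whether libraries of the same number share a litter or batch was not tested. The lowest count of the 8 genes in a library was 365 (Sap30 in WT2), and the coefficient of variation of Sap30 over the libraries was 28.9%.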
